A study of Mus musculus with 6 samples.

Results

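Regions of the mouse genome that carried a methylation peak in hematopoietic stem cells (HSC), in common myeloid progenitors (CMP) and in erythroblasts (ERY) were examined. The autosomal peaks of the 3 deposited lists were merged wherever they overlapped or touched. A region entered the set when it held at least 1 peak of each list, so the regions were selected on the presence of peaks at all 3 stages. That presence is therefore the definition of the set and not a finding. The set held 24396 of the 85078 merged autosomal regions, or 28.7% (95% exact binomial interval 28.4 to 29.0%).

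The series asks how methylation profiles differ between stages of stem cell differentiation. It holds 6 samples, namely 1 library of DNA bound by the methyl-CpG-binding protein MBD2 and 1 supernatant library for each cell type, and the supernatant libraries were not analysed here. Per the labels, all came from female mice of the C57BL/6 background with no further allele or treatment named, and HSC and CMP were taken from adult bone marrow. The HSC gate was lineage-negative, Sca-1-positive and c-kit-positive, and the CMP gate lineage-negative, Sca-1-negative and c-kit-positive. Gates of these markers alone are known to hold several kinds of stem and progenitor cell. The labels say neither how the erythroblasts were isolated nor how many animals were pooled. Peak positions hold no measure of cell identity, so the labelled cell types could not be checked against markers.

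In mammals most methyl groups on DNA sit on cytosines of CpG dinucleotides, and they are copied to the new strand at each cell division by a maintenance enzyme. Dense CpG methylation is typical of repeats, of imprinted alleles and of many gene bodies, while most CpG-rich promoters are free of it. Red cell formation in the mouse is known for a genome-wide loss of methylation during the last divisions. MBD2 pulldown recovers fragments with several methylated CpGs, so a peak marks a stretch where such fragments piled up. The deposited lists give the position of each peak and neither its height nor its read count. Depth is thus unknown, and the length that peaks cover in a region is the single quantity that can be followed from stage to stage. Each stage has 1 library, so differences between stages could not be set against the spread of replicates and were not tested. Intervals below treat regions as independent and cover counting error only.

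The set took a growing part of each list from stem cell to erythroblast. It held 25229 of the 83430 autosomal HSC peaks (30.2%), 25082 of the 49054 CMP peaks (51.1%) and 24940 of the 27266 ERY peaks (91.5%). In bases, it took 24.3 of 67.5 Mb covered in HSC (36.0%), 23.8 of 42.1 Mb in CMP (56.6%) and 20.9 of 22.5 Mb in ERY (92.8%). Since the shared peaks number about the same in each list, these percentages follow the lengths of the lists. The covered length within the set differed far less between stages than that of the whole lists did. This follows largely from the rule, which asks for a peak of each list in every region, and is not a finding.

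Regions of the set were mostly simple. In 23022 of them (94.4%) each list had exactly 1 peak. The next most frequent make-up, in 436 regions (1.79%), was 2 HSC peaks with 1 CMP and 1 ERY peak. Regions with 2 or more peaks numbered 803 for HSC (3.29%), 658 for CMP (2.70%) and 514 for ERY (2.11%). Several HSC peaks stood against 1 ERY peak in 586 regions, and 1 HSC peak stood against several ERY peaks in 297. Among the regions with several peaks, the ERY list thus more often had 1 peak where HSC had several than the reverse. The HSC list is also the longer one, with 83430 autosomal peaks against 27266 in ERY. How far this bears on the 2 counts was not tested.

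The typical region spanned about 1 kb and kept a shared stretch in its interior. The median span was 1028 bp (interquartile range 912 to 1248 bp) and the range 371 to 20014 bp. The stretch covered by all 3 lists had a median of 656 bp (539 to 803 bp), which was 63.9% of the span (54.1 to 73.1%). Seen from each stage, this stretch made up a median of 78.0% of the HSC bases, 76.3% of the CMP bases and 86.9% of the ERY bases. In 20279 regions (83.1%) at least 50% of the span was covered by all 3 lists, and in 4973 (20.4%) at least 75% was. The ERY peaks were therefore the ones that lay most fully inside the shared stretch.

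Within the set, covered length was alike in HSC and CMP and shorter in ERY. HSC peaks covered a median of 885 bp of a region (interquartile range 703 to 1138 bp), CMP peaks 898 bp (750 to 1054 bp) and ERY peaks 802 bp (677 to 918 bp). The interquartile range was narrower for CMP than for HSC, and narrower still for ERY. The upper tail shortened as well, with a 95th percentile of 1872 bp for HSC, 1730 bp for CMP and 1452 bp for ERY. At the low end the order differed, with a 5th percentile of 476 bp for HSC, 547 bp for CMP and 497 bp for ERY. Over all autosomal peaks of each list the order also differed, with a median peak width of 748 bp (HSC), 819 bp (CMP) and 789 bp (ERY). The shorter ERY coverage thus holds for the set and not for the whole lists. The set took 30.2% of the HSC peaks and 91.5% of the ERY peaks. How far this selection shapes the difference in length was not tested.

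**Figure D1:**
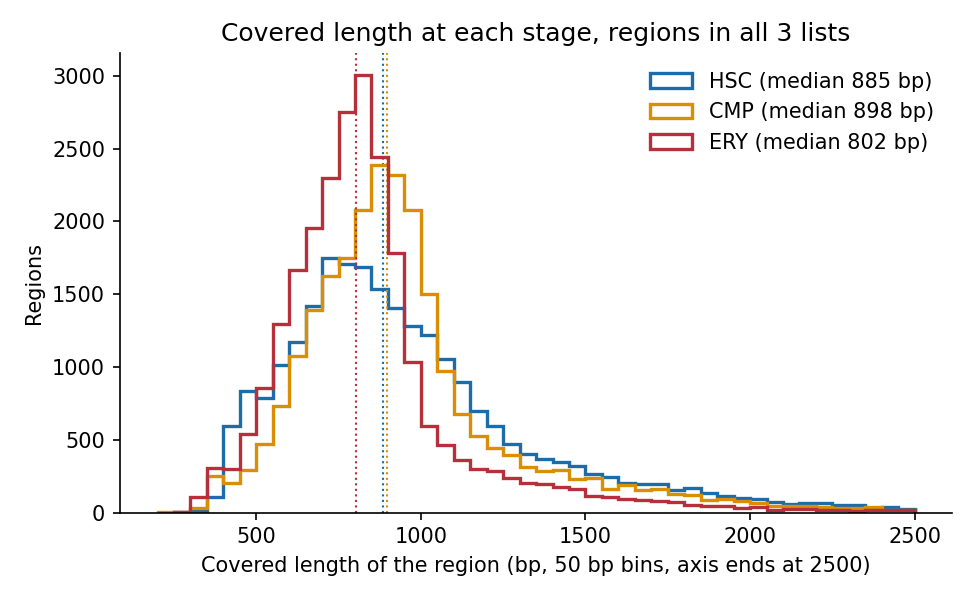
Number of regions (y axis) by covered length in bp (x axis) for the regions in all 3 lists, drawn as 1 outline per stage with dotted lines at the medians. The ERY outline peaks highest and lies to the left, with its median at 802 bp against 885 bp in HSC and 898 bp in CMP; the axis ends at 2500 bp, beyond which lie 377 regions for HSC, 267 for CMP and 137 for ERY.

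Region by region within the set, the shortening lay between CMP and ERY. The ratio of CMP to HSC covered bases had a median of 1.00 (interquartile range 0.847 to 1.20), and CMP was the shorter in 49.7% of regions. The ratio of ERY to CMP had a median of 0.897 (0.765 to 1.03), and ERY was the shorter in 70.8%. Over the whole course, the ratio of ERY to HSC had a median of 0.897 (0.734 to 1.09), and ERY was the shorter in 64.7%. The spread of the ratios was wide at each step, so many single regions went against the median. Covered lengths of the same region were related across stages, with a Spearman rho over the 24396 regions of 0.605 for HSC and CMP, 0.557 for CMP and ERY and 0.497 for HSC and ERY. These are descriptions across regions of the same libraries, and the regions are not independent replicates.

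Changes of at least 1.5-fold in covered bases were the minority at each step. From HSC to CMP, 1906 regions of the set (7.81%) were at least 1.5-fold shorter and 2030 (8.32%) at least 1.5-fold longer in CMP. Over all 46514 regions with an HSC and a CMP peak, whether or not ERY had one, the shares were 9.46% and 8.94%. From CMP to ERY, 3117 (12.8%) were shorter and 593 (2.43%) longer by that factor, beside 12.7% and 2.51% of the 24670 regions with a peak of both lists. From HSC to ERY, 4270 (17.5%) were shorter and 1263 (5.18%) longer, beside 17.3% and 5.35% of 25444 regions. The last 2 backgrounds consist almost wholly of the set itself. Outside the set, 274 regions had CMP and ERY peaks without HSC. Of these, 6.57% were shorter and 9.49% longer in ERY by that factor, with a median ratio of 1.00. In the 1048 regions with HSC and ERY peaks without CMP, the shares were 12.6% and 9.26% and the median ratio of ERY to HSC 0.965. The lean to shorter ERY coverage was thus weaker or absent there. The set was chosen with the same peaks, so these comparisons are a description and were not tested.

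**Figure D2:**
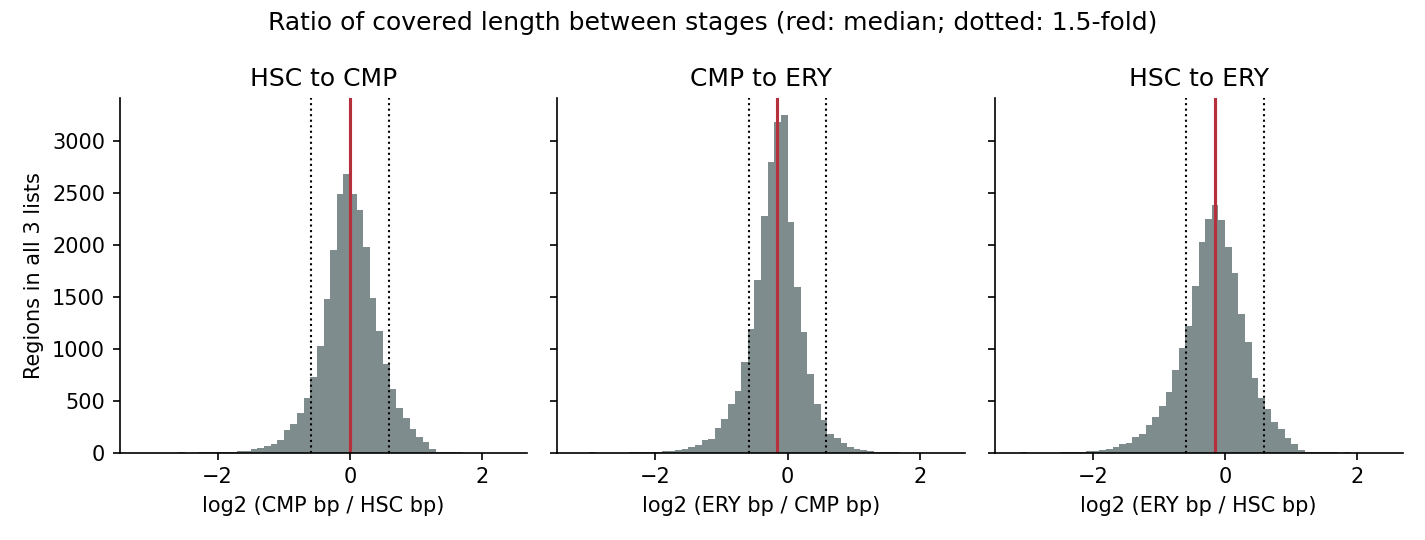
Number of regions in all 3 lists (y axis) by the log2 ratio of covered bases, later over earlier stage (x axis, 1 panel per pair of stages). Red lines mark the medians, at a ratio of 1.00 for HSC to CMP and 0.897 for the other 2 pairs, and dotted lines mark 1.5-fold; the distribution for HSC to CMP is nearly balanced and the other 2 lean to the left.

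A steady shortening was the most frequent of the 6 possible orders and was still found in a minority of regions. Covered length fell from HSC over CMP to ERY in 7324 regions (30.0%, interval 29.4 to 30.6%), with medians of 1107, 933 and 764 bp. CMP was the longest and ERY the shortest in 5222 regions (21.4%), with medians of 876, 993.5 and 735 bp at the 3 stages. In 4683 regions (19.2%) CMP was the longest and HSC the shortest, with 669, 932 and 806 bp in HSC, CMP and ERY. In 3200 (13.1%) the order was HSC, ERY, CMP, and in 1569 (6.43%) it was ERY, HSC, CMP. A steady lengthening toward ERY was seen in 2274 regions (9.32%), with 643, 781 and 870 bp. At least 1 pair of equal lengths occurred in the other 124. HSC thus had the longest coverage in 43.1% of regions, CMP in 40.6% and ERY in 15.8%.

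In the median, the ends of ERY peaks lay inside those of CMP and HSC peaks by similar amounts on both sides. Among the 23022 regions with 1 peak per list, the ERY peak began a median of 42 bp inside the CMP peak on the left (interquartile range -28 to 125 bp) and ended 43 bp inside it on the right (-25 to 126 bp). Against the HSC peak, the median ERY inset was 40 bp on the left and 43 bp on the right. CMP peaks lay a median of 1 and 3 bp inside HSC peaks on the 2 sides. The centre of the peak moved by a median of 60 bp in either direction from CMP to ERY and by 78 bp from HSC to CMP, with no net shift beyond 1 bp in the median.

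One peak of a pair lay wholly inside the other in somewhat more regions than had staggered ends. The ERY peak lay wholly inside the CMP peak in 10551 of these regions (45.8%), and the CMP peak wholly inside the ERY peak in 2682 (11.6%). For HSC and ERY the counts were 8464 (36.8%) and 3714 (16.1%), and for HSC and CMP 6061 (26.3%) and 5725 (24.9%). The remaining pairs overlapped with 1 end outside on either side, in 42.5% of regions for CMP and ERY, 47.1% for HSC and ERY and 48.8% for HSC and CMP. ERY inside CMP inside HSC was found in 2118 regions (9.20%, interval 8.83 to 9.58%).

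Among the 10 widest regions of the set, 4 had near-equal coverage at each stage and the other 6 had less in ERY than in HSC. The widest lay on chromosome 11 at 3080495 to 3100508 (mm9, 20014 bp). It had 1 peak in each list, of 19797 bp (HSC), 19960 bp (CMP) and 19871 bp (ERY). The third widest, on chromosome 15 at 76002333 to 76012758, was covered over 10124, 10313 and 10400 bp in HSC, CMP and ERY. A region on chromosome 4 at 141027036 to 141035791 was covered over 8630, 8582 and 8280 bp, in 1, 2 and 3 peaks, and one on chromosome 17 at 39979556 to 39986270 over 6236, 6715 and 6373 bp. In these 4 regions the stretch covered by all 3 lists took 98.6%, 97.1%, 93.2% and 92.9% of the span. No annotation of mm9 was at hand, so genes and repeats at these positions are not given.

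The other 6 differed in how their peaks were arranged. On chromosome 9 at 3021797 to 3033340, HSC had 1 peak of 11544 bp, CMP had 3 peaks covering 10823 bp and ERY had 1 peak of 1380 bp near the distal end. This was the lowest ERY share of HSC bases among the 10, at 0.120. On chromosome 10 at 69451565 to 69457626, 1 HSC peak of 6062 bp stood over 2 CMP peaks (4641 bp) and 3 ERY peaks (3049 bp). On chromosome 5 at 109978623 to 109986829 the HSC peak covered 8171 bp, 2 CMP peaks 5466 bp and 3 ERY peaks 4329 bp, with the middle of the region bare in both later lists. The region on chromosome 12 at 20232393 to 20240409 had 7999 and 5778 bp in 2 peaks each and 4797 bp in 1 ERY peak. On chromosome 4 at 55021156 to 55027311 coverage was 5897 bp in 1 HSC peak, 4542 bp in 4 CMP peaks and 3501 bp in 3 ERY peaks. The region on chromosome 2 at 174120388 to 174126930 changed least of the 6, with 6543, 6360 and 5455 bp.

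**Figure D3:**
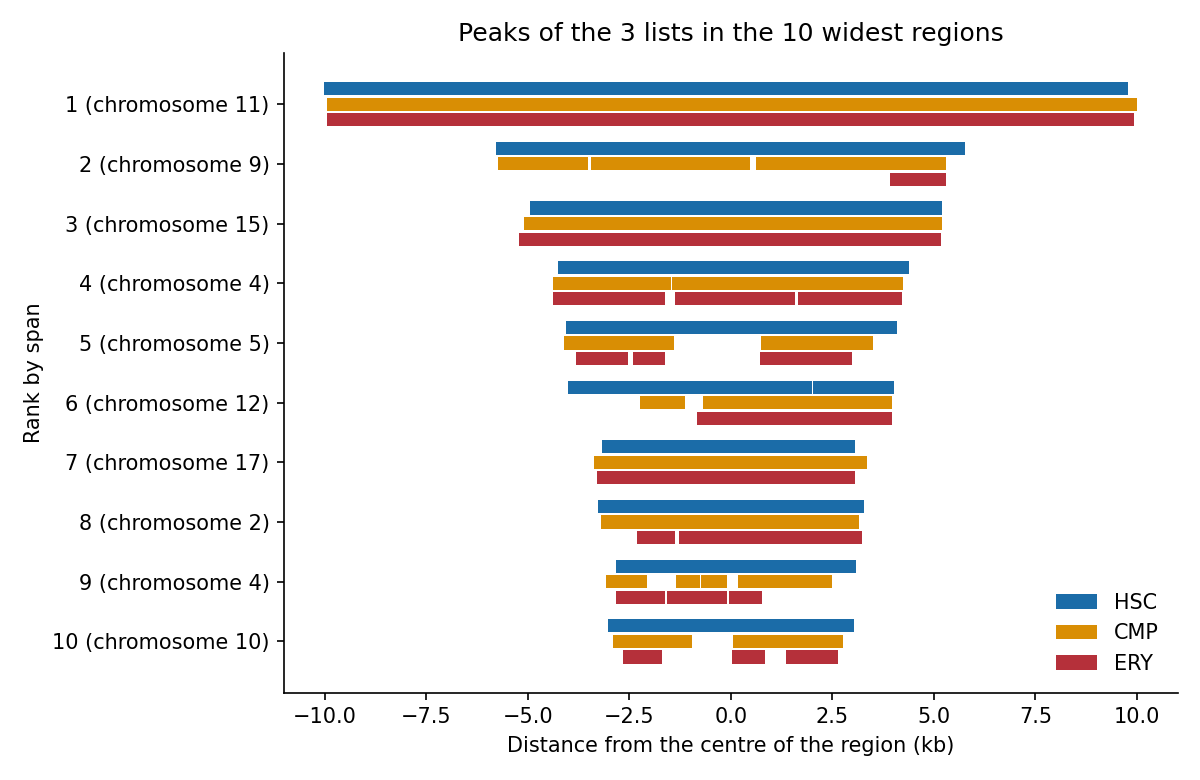
Peaks of HSC (blue), CMP (orange) and ERY (red) in the 10 widest regions, each drawn as bars by distance in kb from the centre of its region (x axis) and ordered by span (y axis). Ranks 1, 3, 4 and 7 are covered along nearly their whole span at each stage, while in ranks 2, 5, 9 and 10 a single HSC peak faces shorter or several separate CMP and ERY peaks.

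Ranked by the bases covered by all 3 lists, the next 5 regions lay on chromosomes 8, 4, 9 and 10. The first, on chromosome 8 at 46106868 to 46112593, had 2 peaks in each list and 5452, 5718 and 5231 covered bp in HSC, CMP and ERY. The second, on the same chromosome at 111469961 to 111475978, had 5853, 5846 and 4803 bp. On chromosome 9 at 110530028 to 110536041, 1 HSC peak of 5924 bp matched 3 CMP peaks (4889 bp) and 4 ERY peaks (4547 bp). The remaining ones, on chromosome 4 at 132616836 to 132622416 and chromosome 10 at 79437830 to 79442861, kept 4486 of 5581 bp and 4646 of 4944 bp in ERY. The highest number of peaks, 9 over the 3 lists, was on chromosome 4 at 137093774 to 137097917, with 4 HSC peaks (3451 bp), 3 CMP peaks (3664 bp) and 2 ERY peaks (1401 bp).

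Regions at the extremes of the ERY to HSC ratio were looked at among the 7739 with 1 peak per list and at least 1000 bp in HSC. The lowest ratio, 0.206, belonged to chromosome 5 at 113610642 to 113612584, with 1943 bp (HSC), 1602 bp (CMP) and 400 bp (ERY). The next, on chromosome 2 at 17960934 to 17963651, had 2718, 2480 and 574 bp. In both, most of the difference arose between CMP and ERY. In the other 3 of the 5 lowest, most of it was already present in CMP. These lay on chromosome 10 at 66180841 to 66183322 (2382, 759 and 541 bp), chromosome 9 at 4138160 to 4139837 (1547, 479 and 353 bp) and chromosome 11 at 115065953 to 115069881 (3929, 1232 and 934 bp). The regions were ranked by these values, so their size is a description.

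At the other extreme the ERY peak was the longer. The highest ratio, 1.71, was on chromosome 2 at 168759642 to 168761489, where coverage was 1058 bp (HSC), 1197 bp (CMP) and 1805 bp (ERY). It was followed by chromosome 2 at 158664367 to 158665966 (1005, 1164 and 1600 bp) and chromosome 10 at 68782197 to 68783916 (1054, 1000 and 1602 bp). The last 2 of the 5 highest were on chromosome 15 at 98433887 to 98435541 (1072, 1640 and 1537 bp) and chromosome 5 at 116405807 to 116407303 (1044, 1302 and 1492 bp). Coverage rose at both steps in 3 of these 5, and in the other 2 one step went down.

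Some regions had almost the same ends at all 3 stages. Summed over both ends, the distance between the outermost and the innermost of the 3 peak ends had a median of 365 bp. It was 9 bp on chromosome 2 at 157384919 to 157386697, where the peaks measured 1772, 1771 and 1779 bp in HSC, CMP and ERY. It was 17 bp on chromosome 16 at 95789552 to 95790422 (856, 860 and 870 bp) and on chromosome 3 at 31081586 to 31082174 (589, 584 and 574 bp).

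Some regions lay at the margin of the rule on either side. In 12 regions of the set no base was covered by all 3 lists, because the peaks were joined through one another. The smallest shared stretch above 0 was 6 bp, on chromosome 7 at 125875651 to 125878240, where the CMP peak of 780 bp and the ERY peak of 1750 bp lay at opposite ends of an HSC peak of 2400 bp. Just outside the set, a region on chromosome 6 at 5372977 to 5374078 had an HSC peak of 1102 bp and a CMP peak of 736 bp, and the nearest ERY peak lay 2 bp away. Of the 22118 regions with HSC and CMP peaks and no ERY peak, 68 (0.307%) had an ERY peak within 100 bp and 599 (2.71%) within 500 bp. For those regions the median distance to an ERY peak was 20198 bp. An ERY peak lay within 1000 bp of 1254 of the 22118 regions (5.67%) and within 5000 bp of 4674 (21.1%). Few regions of HSC and CMP without ERY thus lay within 500 bp of an ERY peak. No such shares are given for other classes, so this has no comparison. The lists hold no scores, so how many regions lay near the calling threshold is unknown.

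Regions in the set had longer HSC and CMP coverage than those of the other large classes. The median HSC coverage of 885 bp compares with 761 bp (interquartile range 605 to 950 bp) in the 22118 regions of HSC and CMP without ERY and with 677 bp (539 to 829 bp) in the 34802 regions of HSC alone. The median CMP coverage of 898 bp compares with 758 bp (634 to 881 bp) in the former class. The interquartile ranges of the classes overlapped. Length and membership come from the same peaks, and a longer region can meet a further peak more easily. How far this shapes the differences was not tested, and the values are a description.

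The share of regions that belonged to the set rose along the whole range of length and not just at its ends. By HSC coverage it climbed through every decile, from 12.4% (interval 11.7 to 13.1%) at 246 to 463 bp, over 25.1% at 693 to 751 bp and 35.2% at 901 to 1009 bp, to 63.1% (62.1 to 64.2%) at 1201 bp and above. The steepest rise was at the last step, from 44.3%. Among regions with HSC and CMP peaks, the share rose by CMP coverage from 31.7% (30.4 to 33.1%) at 214 to 568 bp to 81.6% (80.4 to 82.7%) at 1226 bp and above. Length and membership come from the same peaks here as well, and how far length itself shapes the rise was not tested.

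**Figure D4:**
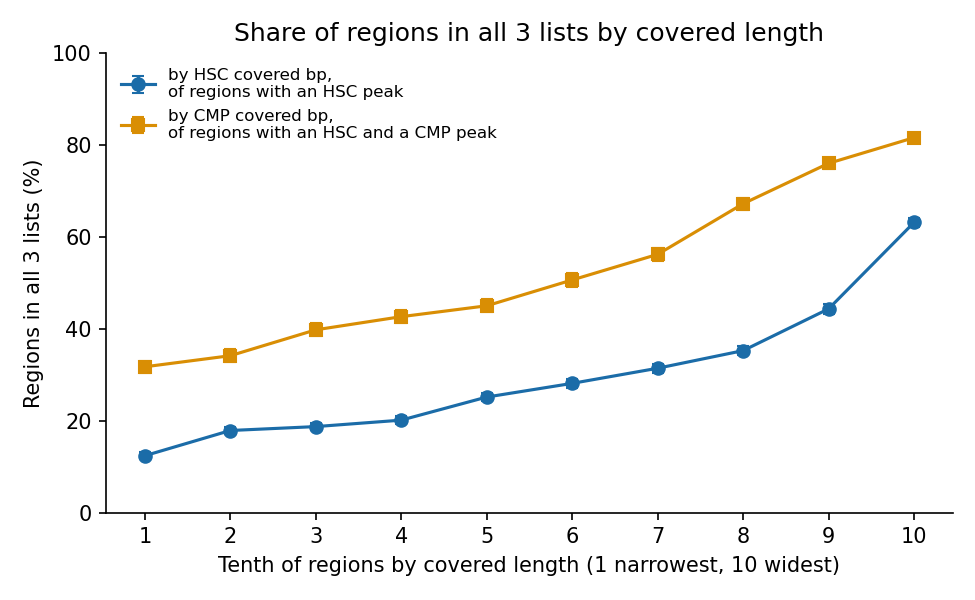
Percentage of regions in all 3 lists (y axis) by decile of covered length (x axis, 1 the narrowest), by HSC length among regions with an HSC peak (circles) and by CMP length among regions with HSC and CMP peaks (squares). Bars are 95% exact binomial intervals; the share rises from 12.4 to 63.1% by HSC length and from 31.7 to 81.6% by CMP length.

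Within groups of HSC length, the share in the set also differed by CMP length. Regions with HSC and CMP peaks were put into 5 equal groups by HSC coverage, and each was divided by whether CMP covered fewer bases than HSC. In the middle group (754 to 897 bp), 62.7% of 4327 regions with CMP as long or longer belonged to the set (interval 61.2 to 64.1%), against 41.1% of 5000 with CMP shorter (39.7 to 42.5%). In the group from 898 to 1113 bp the shares were 73.4 and 51.2%. In the longest group, which ran from 1114 to 19797 bp, they were 81.3 and 67.6%. They were 50.1 and 35.6% in the group from 611 to 753 bp and 39.6 and 33.5% in the shortest. The direction was the same in each of the 5 groups, and the gap was smallest in the shortest one. Lengths and membership come from the same peaks, and a longer CMP peak can widen the region that an ERY peak may meet. The shares are therefore a description.

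The ratio of ERY to HSC was lower in regions of the set with long CMP coverage, although its median was below 1 in each of the 10 deciles. Regions were ordered by CMP coverage, which does not enter the ratio itself. It was still related to both terms, with a Spearman rho of 0.605 for HSC and 0.557 for ERY. The ranking is therefore not independent of the ratio, and how far this relation shapes the trend was not tested. In the 6 lowest deciles, up to 950 bp, the median ratio of ERY to HSC lay between 0.901 and 0.939. It was 0.835 in the next to last decile (1125 to 1425 bp) and 0.793 in the last (1426 bp and above). Regions at least 1.5-fold shorter in ERY than in HSC made up 12.7 to 15.6% of each of the first 8 deciles, 23.9% of the next and 35.3% of the last. In the last decile the median HSC, CMP and ERY coverage was 1777, 1731 and 1385 bp. In the first it was 672, 547 and 633 bp.

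As a share of regions the set varied little over the autosomes, and in density it varied more. The share ranged from 26.2% on chromosome 6 (interval 24.9 to 27.5%) to 30.6% on chromosome 5 (29.5 to 31.7%). These are the extremes of the 19 autosomes, picked by their shares, so nothing is read from the gap between their intervals. The mean was 28.6 ± 1.42% (SD over the 19 autosomes). Density was 9.87 regions of the set per Mb in all, and ran from 6.70 per Mb on chromosome 14 to 13.1 per Mb on chromosome 5. The median ratio of ERY to HSC coverage was below 1 on each of the 19 autosomes, from 0.864 on chromosome 8 to 0.916 on chromosome 13. That of CMP to HSC lay between 0.980 on chromosome 8 and 1.03 on chromosome 3. Chromosomes of 1 set of libraries are not replicates, and these ranges only describe variation along the genome.

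Regions of the set were denser at the distal chromosome ends, largely together with the other regions. The distal 10 Mb, counted back from the last peak, carried 18.4 per Mb against 9.16 per Mb in the rest, and the distal end was the denser on 18 of 19 autosomes, all but chromosome 17. As a share of regions the difference was small. Of 11662 distal regions 30.1% belonged to the set (interval 29.2 to 30.9%), against 28.5% of 73416 others (28.1 to 28.8%). The distal share was the higher on 15 of 19 autosomes and the lower on chromosomes 6, 7, 17 and 19. Over the distal 5 Mb the counts were smaller, with the higher density on 14 and the higher share on 13 of 19 autosomes. The shares were then 29.9% (28.6 to 31.2%) in the distal part and 28.6% (28.3 to 28.9%) in the rest, with overlapping intervals.

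**Figure D5:**
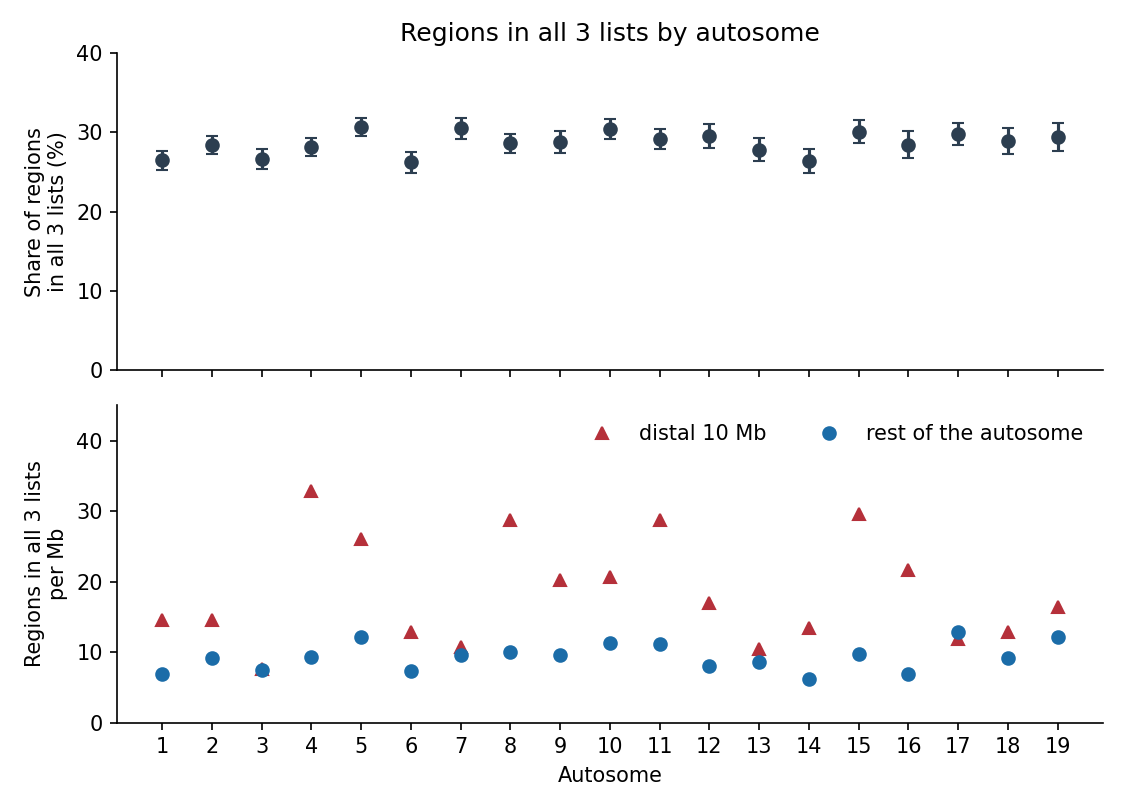
Upper panel, percentage of merged regions in all 3 lists on each autosome with 95% exact binomial intervals; lower panel, regions in all 3 lists per Mb in the distal 10 Mb (triangles) and in the rest (circles). Shares stay between 26.2 and 30.6%, while the distal density exceeds that of the rest on 18 of the 19 autosomes.

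Within chromosomes the set gathered largely where regions of all classes did. In fixed windows of 1 Mb the median was 7 regions of the set (interquartile range 3 to 14) and the highest 68. The 242 windows with the most of them, 10% of the 2426 windows, held 7937 regions (32.5%), while 75 windows (3.09%) held none. These windows were ranked by that same count, so the share is a description. Regions of all classes were concentrated as well. The 210 windows with 80 to 174 regions of any class held 21395 of all 85078 regions and 6924 of the 24396 in the set. The windows with the most regions of the set were on chromosome 10. From 79000001 to 80000000 the set had 68 of 130 regions (52.3%), and in the adjoining Mb up to 81000000 it had 67 of 129 (51.9%). On chromosome 5 the window from 116000001 to 117000000 held 61 of 156 (39.1%), the same number as the windows from 114000001 on chromosome 5 and from 52000001 on chromosome 7. By number of regions in the window, the share in the set was 26.6% (interval 24.8 to 28.6%) in windows with 1 to 9 regions and 32.4% (31.7 to 33.0%) in those with 80 to 174. Between those it ran from 26.1 to 29.5%. The longest stretch without such a region reached over 7.78 Mb on chromosome 7, from 39007375 to 46790674, and held 7 regions of other classes.

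Neighbouring regions shared membership slightly more often than regions at large. The next region along the chromosome belonged to the set after 31.4% of its members (interval 30.9 to 32.0%) and after 27.6% of other regions (27.2 to 27.9%), and the former share was the higher on 19 of 19 autosomes. Regions of the set lay a median of 3732 bp from the nearest region of any class, against 5082 bp for HSC and CMP without ERY and 4939 bp for HSC alone. Within 5 kb of another region lay 56.6% of the set, 49.6% of the former class and 50.3% of the latter. Single regions flanked by others made up 47.8% of the set (11653), and 24.1% lay in runs of 3 or more. The longest run was 10 consecutive regions within 40.3 kb on chromosome 4, from 149023251 to 149063559. Of the 4 runs of 9, the most compact were on chromosome 12 from 111854155 to 111878866 (24.7 kb) and on chromosome 10 from 126979798 to 127004854 (25.1 kb).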

How the data were processed

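The authors deposited 1 list of peaks for each MBD2-enriched library, exported by a table query of a genome browser per the file headers, with chromosome, start and end of each peak and no count, score or p-value. Per the labels' protocols the libraries gave 36 bp single-end reads that were placed uniquely, and the build is mm9 per the submitters' processing notes. For the read aligner, the caller of the peaks and any control it used, nothing is stated there.

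Peaks of chromosomes 1 to 19 that overlapped or touched were merged with Python 3.11.15, pandas 2.3.3, numpy 2.4.6 and scipy 1.17.1. Region and member counts were identical with bedtools 2.31.1, and the code was tested on simulated data. Covered length is the number of bases under the peaks of 1 list in a region. Positions are 1-based. Shares carry 95% Clopper-Pearson intervals.

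The set, the comparisons and the named regions were chosen with earlier results of these data known. Regions are named by span, shared bases, ratio of ERY to HSC coverage, number of peaks, nearness of ends, margin of the rule, window and run. The gene table at hand is of another build (GRCm38), so planned comparisons of gene features, gene lists, CpG density and ETS motifs were not run, and no sequence is shown. Alternatives covered the rule for a shared region, merging within 500 bp, the wider 50% of each list, X and Y, 1 kb bins, regions of 1 peak per list, fold and distance limits and each autosome left out.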

Additional observations from a re-analysis of the deposited data

Results flagged for a closer look

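Chromosomes X and Y lie outside the set and were looked at for signal of the same kind. On X, 538 of 2425 merged regions held a peak of each list (22.2%, interval 20.5 to 23.9%), with a median ratio of ERY to HSC coverage of 0.791. On Y, 1 of 11 regions did, at 29316 to 29872, covered over 455 bp (HSC), 387 bp (CMP) and 534 bp (ERY), although the labels give female mice. Both are flagged as signal in data that the comparisons above do not use.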

How the results depend on the processing

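The size of the set depended on the rule. It was 8579 regions (17.4%) with the wider 50% of each list, which drops shared regions by construction, and 42247 bins (27.0%) in 1 kb bins, which cut each region into several. The share was 23.8% where at least 50% of the region had to be covered by all 3 lists and 29.6% with peaks within 500 bp merged. Asking for 1 shared bp, or adding X and Y, moved neither count nor share beyond its limits. Regions of 1 peak per list had medians of 863, 885 and 794 bp in HSC, CMP and ERY and median ratios of 1.01 (CMP to HSC), 0.900 (ERY to CMP) and 0.905 (ERY to HSC). Merging within 500 bp gave 918, 909 and 806 bp and 0.985, 0.889 and 0.873. The ratio of CMP to HSC thus lay on either side of 1. A fall from HSC over CMP to ERY was found in 29.1% of regions with 1 peak per list, and in 11.6% where each step had to reach 10%. With a limit of 20% fewer bases, 19.13% were shorter from HSC to CMP, 31.0% from CMP to ERY and 34.8% from HSC to ERY, and at 2-fold 1.62%, 2.88% and 5.16%, by construction. The distal share over 5 Mb (29.9%) and the share of following members among regions of 1 HSC peak stayed within their intervals. Without 1 autosome, 133 of 133 shares and medians did so. The 19 counts then ran from 22399 to 23612 regions, within the limit of 1.5-fold used for counts, which leaving out 1 autosome could not exceed. Feature, CpG and motif results were not run. No paired analysis was possible because each cell type has 1 library. Depth is unknown, so how far the sensitivity of each list sets membership and covered length was not tested.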
